A study of Bos taurus with 2 samples.

Results

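The 10 genes described here are axon guidance ligands and the receptors that read them: the ligands NTN1, SLIT1, SLIT2 and SEMA3A and the receptors DCC, UNC5C, ROBO1, ROBO2, PLXNA4 and NRP1. They were taken by name from a list, by a rule that uses no measured value, though members and list were chosen with earlier results of these data known. All 10 were found among the 17846 genes of the deposited count table. Of 101 guidance genes listed in all, 100 were in the table, 86 passed the filter on low counts and 14 did not; each of the 10 members passed.

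The cells came from day 25 embryos of cattle (Bos taurus) that were chimeric, carrying incorporated bovine embryonic stem cells (bESC). Embryos were taken apart with papain, sorted and profiled by droplet single-cell RNA sequencing that counts unique molecular identifiers (UMI) at the 3′ end of transcripts. The samples analysed here form 1 experimental group with 2 libraries, called replicate 1 and replicate 2, so every comparison is between cell groups within the same libraries. Whether the libraries stem from separate embryos is not stated. The p-values therefore measure only how unevenly the differences between cell groups came out in these 2 libraries. That spread was estimated jointly over groups and genes and may be technical. The sort gate, of which the labels give no detail, can set the share of every cell type.

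Netrins and Slits are secreted by the floor plate at the ventral midline of the neural tube and steer the axons of neurons toward or away from it. Netrin-1, made by NTN1, attracts axons through DCC and repels them through UNC5 receptors, while Slit proteins repel axons that carry Robo receptors. Semaphorin 3A, made by SEMA3A, repels axons through neuropilin-1 (NRP1), which binds it, and a plexin such as plexin-A4 (PLXNA4), which passes the signal into the cell.

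Cell groups were built by clustering 4152 cells, 1842 of replicate 1 and 2310 of replicate 2, on genes that included no guidance gene, and were named from marker lists that hold none either. The groups still rest on other genes of the same cells, so the p-values describe the groups as clustered. Of 17 groups, 11 had at least 20 cells in each library and could be tested. Neural progenitor-like cells, with 910 and 1003 cells in 6 clusters, were the common reference. The other named groups were floor plate-like (168 and 286 cells), roof plate-like (86 and 176), newborn neuron-like (69 and 121), neuron-like (141 and 119), noradrenergic neuron-like (87 and 101) and mesenchyme-like cells (34 and 71). Clusters 9, 13, 14 and 18 met no name and keep their numbers. The summed floor plate markers, among them SHH and FOXA2, reached 929 and 876 CPM (UMI of a group relative to its library total, scaled by TMM factors) in floor plate-like cells and 139 and 135 in neural progenitor-like cells. The names neuron-like and newborn neuron-like follow a rule on marker genes, and both groups held the markers of both names. The summed neuron markers were at 7290 and 9246 CPM in newborn neuron-like and 2647 and 2855 CPM in neuron-like cells, against 305 and 322 CPM in neural progenitor-like cells. The newborn neuron markers were at 1830 and 1480 CPM in newborn neuron-like and 859 and 951 CPM in neuron-like cells, against 55.0 and 60.6 CPM in neural progenitor-like cells. Other clusterings also moved the names. At Leiden resolution 2.0, a finer clustering, 189 of 255 cells named neuron-like were newborn neuron-like here and 126 of 134 named newborn neuron-like were neuron-like here. At resolution 0.5 the name neuron-like took 260 neuron-like and 190 newborn neuron-like cells, and with all deposited barcodes it took the same numbers among 482. Values of these 2 names under those settings are for other cells and are not set beside the values below. Noradrenergic neuron-like cells had the noradrenergic markers DBH and HAND2 among their 10 leading genes, and SHH was at 0 there.

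The groups differed in RNA makeup as well as in identity. The median share of UMI from ribosomal protein genes was 24.4% in roof plate-like, 20.3% in floor plate-like, 13.1% in newborn neuron-like, 10.0% in noradrenergic neuron-like and 1.49% in neuron-like cells, against 2.84% in neural progenitor-like cells. Median UMI per cell ran from 10313 in roof plate-like cells through 8861.5 and 7536.5 in newborn and noradrenergic neuron-like cells to 4138.5 in neuron-like cells, against 4267 in neural progenitor-like cells. The part of this difference in the fold changes against neural progenitor-like cells was not tested, and values between groups of like ribosomal share are given beside them below.

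**Figure D1:**
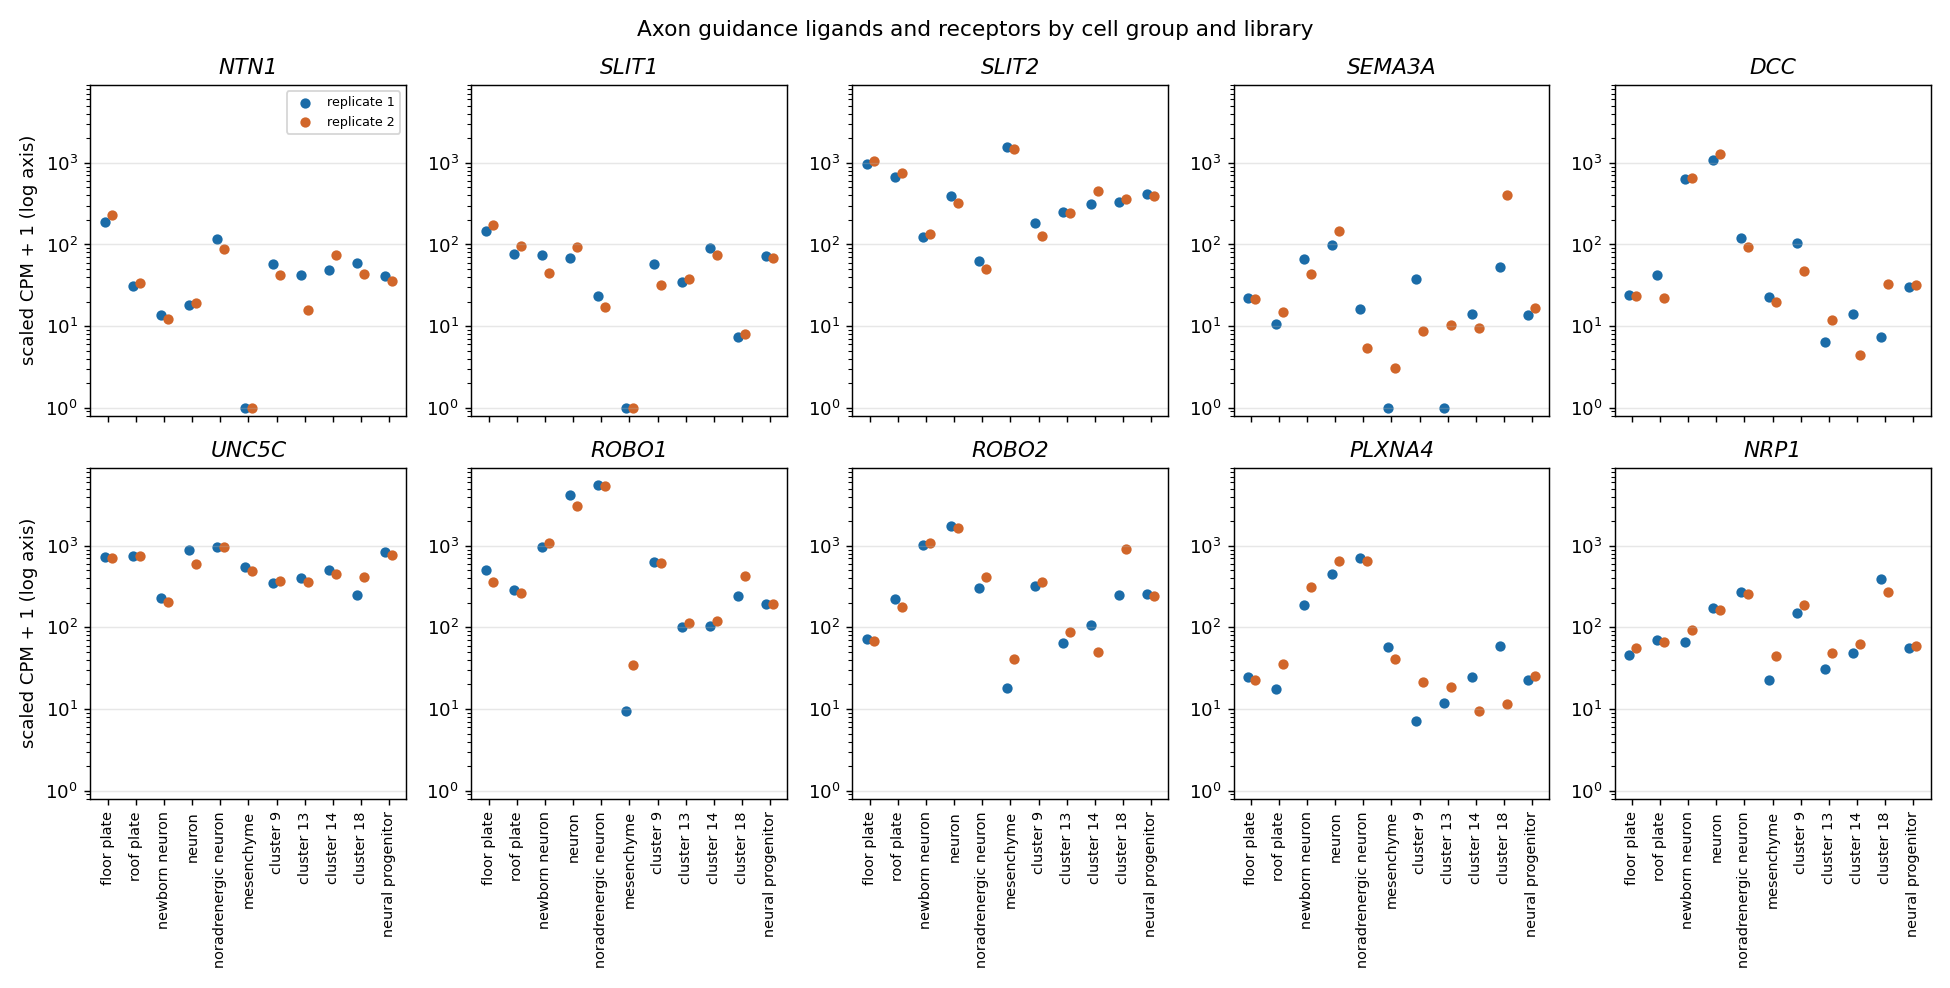
Scaled CPM plus 1 on a log axis (y) of each ligand and receptor in the 11 tested cell groups (x), with 1 point per library. NTN1 and SLIT1 are highest in floor plate-like cells, DCC and ROBO2 in neuron-like cells, ROBO1 and UNC5C in noradrenergic neuron-like cells, and NTN1 and SLIT1 sit at the bottom of the axis in mesenchyme-like cells, where they had no count.

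Netrin-1 transcripts were highest in floor plate-like cells. NTN1 stood at 187 CPM in replicate 1 and 227 CPM in replicate 2 of floor plate-like cells, against 40.4 and 34.5 CPM in neural progenitor-like cells. Noradrenergic neuron-like cells came next at 116 and 88.0 CPM, and neither group overlapped its neighbour in the order. Clusters 14, 18 and 9 lay between 41.4 and 73.2 CPM and overlapped each other, all above neural progenitor-like cells. Below neural progenitor-like cells by mean lay roof plate-like cells at 30.2 and 33.1 CPM, cluster 13 at 41.0 and 14.8, neuron-like cells at 16.97 and 18.2 and newborn neuron-like cells at 12.8 and 11.3. Mesenchyme-like cells had no NTN1 count in 105 cells. With 3 counts over the pooled libraries taken as the floor, the level was at least 8.92-fold lower than in neural progenitor-like cells. The log2 fold change against neural progenitor-like cells was 2.49 ± 0.15 (SE) in floor plate-like cells (edgeR adjusted p = 1.71e-21), 1.44 ± 0.20 in noradrenergic neuron-like cells (edgeR adjusted p = 1.19e-08), -1.64 ± 0.35 in newborn neuron-like cells (edgeR adjusted p = 4.58e-05) and -1.09 ± 0.32 in neuron-like cells (edgeR adjusted p = 0.00407).

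SLIT1, a Slit ligand, was also highest in floor plate-like cells, at 145 and 171 CPM, against 70.6 and 67.3 CPM in neural progenitor-like cells (log2 fold change 1.21 ± 0.14, edgeR adjusted p = 5.82e-11). Roof plate-like cells (75.6 and 94.8 CPM), cluster 14, neuron-like cells (67.9 and 90.8 CPM), newborn neuron-like cells (73.2 and 44.1 CPM), clusters 9 and 13 and neural progenitor-like cells formed a run in which each neighbour overlapped the next. Noradrenergic neuron-like cells fell below that run, at 22.7 and 16.1 CPM (log2 fold change -1.83 ± 0.29, edgeR adjusted p = 1.85e-07). Cluster 18 had 6.43 and 7.03 CPM. Mesenchyme-like cells had no SLIT1 count, at least 16.4-fold lower than neural progenitor-like cells at the same floor.

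SLIT2, the other Slit ligand of the set, was highest in mesenchyme-like cells by scaled CPM. Mesenchyme-like cells had 1541 and 1479 CPM, floor plate-like cells 971 and 1049 CPM and roof plate-like cells 668 and 743 CPM, against 417 and 395 CPM in neural progenitor-like cells, and these 4 groups did not overlap. The lead of mesenchyme-like over floor plate-like cells rests on TMM factors of 0.665 and 0.615 against 0.9973 and 0.9925. Relative to library totals alone, 359 of 350168 and 712 of 783013 UMI overlapped the 1149 of 1186416 and 2377 of 2282122 in floor plate-like cells. The ribosome-poor floor plate-like cluster described below was higher than mesenchyme-like cells. The log2 fold changes were 1.89 ± 0.12 in mesenchyme-like cells (edgeR adjusted p = 1.29e-20), 1.32 ± 0.11 in floor plate-like cells (edgeR adjusted p = 1.88e-15) and 0.80 ± 0.12 in roof plate-like cells (edgeR adjusted p = 2.49e-08). Neuron-like cells, at 386 and 325 CPM, did not pass the test (log2 fold change -0.18 ± 0.13, edgeR adjusted p = 0.252), but did so in the negative direction with library totals only (-0.46) and with genes centred within each library before clustering (-0.30). SLIT2 was lowest in newborn neuron-like cells (121 and 132 CPM) and noradrenergic neuron-like cells (61.9 and 48.4 CPM), with log2 fold changes of -1.67 ± 0.15 (edgeR adjusted p = 1.78e-14) and -2.88 ± 0.18 (edgeR adjusted p = 1.65e-20). In mesenchyme-like cells all 10 mesenchyme markers were present at a summed 54935 and 60299 CPM, and 5 of 9 markers of hepatic or yolk sac endoderm at 42150 and 43306 CPM with AFP at 0. Epithelium markers were at 13000 and 14621 CPM there, and roof plate markers at 635 and 708 CPM. The part of these markers in the SLIT2 level was not tested.

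SEMA3A had the fewest counts of the members, 269 and 436 UMI in all. Neuron-like cells had 96.6 and 145 CPM and newborn neuron-like cells 65.9 and 42.1 CPM, against 12.8 and 15.7 CPM in neural progenitor-like cells. The log2 fold change was 3.06 ± 0.53 in neuron-like cells (edgeR adjusted p = 0.000592). In newborn neuron-like cells it was 1.80 ± 0.65 (edgeR adjusted p = 0.0309), and that call was lost in 4 alternatives, with adjusted p from 0.0546 to 0.123. Of the neuron-like cells, 3 held 35.1% of the 74 SEMA3A UMI in replicate 1 and 60.2% of 88 in replicate 2. Of the newborn neuron-like cells, 3 held 69.4% of 36 UMI in replicate 1 and 34.1% of 41 in replicate 2. Floor plate-like cells had 21.1 and 20.8 CPM and noradrenergic neuron-like cells 15.1 and 4.40 CPM, and neither passed the test. Cluster 18, a small group of 21 and 35 cells with summed epithelium markers at 2953 and 3475 CPM, mesenchyme markers at 2599 and 2751 CPM and cardiomyocyte markers at 2632 and 98.4 CPM, had 51.5 CPM in replicate 1 and 397 CPM in replicate 2, where 3 cells held 83.2% of the 113 UMI; its fold change of 4.16 ± 0.61 (edgeR adjusted p = 0.000338) was 1.99 without replicate 2.

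DCC, the attractive netrin receptor, was highest in the neuronal groups. Neuron-like cells had 1074 and 1286 CPM, newborn neuron-like cells 637 and 649.7 CPM and noradrenergic neuron-like cells 119 and 92.4 CPM, against 29.1 and 30.8 CPM in neural progenitor-like cells. The neuron-like and newborn neuron-like groups each stood apart from the next, while noradrenergic neuron-like cells overlapped cluster 9 (103 and 45.8 CPM). All other groups lay between 3.40 and 41.2 CPM. The log2 fold changes were 5.29 ± 0.18 in neuron-like (edgeR adjusted p = 6.9e-18), 4.42 ± 0.18 in newborn neuron-like (edgeR adjusted p = 1.75e-16) and 1.81 ± 0.26 in noradrenergic neuron-like cells (edgeR adjusted p = 1.42e-06).

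UNC5C, a repulsive netrin receptor, was present in all 11 groups. Noradrenergic neuron-like cells had 968 and 964 CPM, roof plate-like cells 744 and 757 CPM, neuron-like cells 898 and 591 CPM and floor plate-like cells 725 and 709 CPM, against 846 and 762 CPM in neural progenitor-like cells. Newborn neuron-like cells had the lowest level of the 11 groups, at 225 and 205 CPM (log2 fold change -1.90 ± 0.14, edgeR adjusted p = 2.08e-17). Mesenchyme-like cells (549 and 484 CPM) and clusters 14, 13, 9 and 18 lay between. Neuron-like cells did not pass the test (-0.11 ± 0.12, edgeR adjusted p = 0.5), but were called lower with library totals only (-0.39). The higher level in noradrenergic neuron-like cells (log2 fold change 0.27 ± 0.12, edgeR adjusted p = 0.0495) sat at the threshold: it was lost without the library term (0.27, adjusted p = 0.112) and in 5 other alternatives, and it turned negative with library totals only (-0.15) and with all deposited barcodes (-0.063).

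ROBO1, a Slit receptor, was highest in the neuronal groups. Noradrenergic neuron-like cells had 5494 and 5454 CPM, neuron-like cells 4192 and 3063 CPM and newborn neuron-like cells 953 and 1081 CPM, against 192 and 194 CPM in neural progenitor-like cells. These 4 groups did not overlap. Of the neuron-like cells, 3 held 33.8% of the 3211 ROBO1 UMI in replicate 1 and 26.9% of 1855 in replicate 2. Of the noradrenergic neuron-like cells, 3 held 29.6% of 3637 UMI in replicate 1 and 19.0% of 3719 in replicate 2. The log2 fold changes were 4.83 ± 0.15 in noradrenergic neuron-like (edgeR adjusted p = 3.52e-26), 4.23 ± 0.15 in neuron-like (edgeR adjusted p = 1.9e-24) and 2.41 ± 0.15 in newborn neuron-like cells (edgeR adjusted p = 3.21e-17). Floor plate-like cells were higher too, at 505 and 363 CPM (log2 fold change 1.15 ± 0.14, edgeR adjusted p = 1.06e-08). Mesenchyme-like cells had the lowest level, 8.58 and 33.2 CPM.

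ROBO2, the second Slit receptor, kept another order. Neuron-like cells had 1727 and 1663 CPM and newborn neuron-like cells 1027 and 1085 CPM, against 253 and 239 CPM in neural progenitor-like cells, with log2 fold changes of 2.79 ± 0.28 (edgeR adjusted p = 7.16e-06) and 2.10 ± 0.28 (edgeR adjusted p = 4.63e-05). Noradrenergic neuron-like cells, which had the highest ROBO1, had 301 and 408 CPM of ROBO2 and did not pass the test (0.52 ± 0.31, edgeR adjusted p = 0.173). Floor plate-like cells, at 71.8 and 67.1 CPM, fell by 1.85 ± 0.35 on the log2 scale (edgeR adjusted p = 0.000704), while their ROBO1 rose. Cluster 18 differed between libraries, at 251 and 921 CPM, and its fold change of 1.38 became -0.018 without replicate 2.

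PLXNA4, the signalling receptor for semaphorin 3A, was highest in the neuronal groups. Noradrenergic neuron-like cells had 704 and 649.7 CPM and neuron-like cells 450.4 and 659 CPM, which overlapped, and newborn neuron-like cells 188 and 312 CPM, against 21.9 and 24.6 CPM in neural progenitor-like cells. The remaining 7 groups lay between 6.15 and 57.9 CPM. Of the neuron-like cells, 3 held 27.8% of the 345 PLXNA4 UMI in replicate 1 and 54.6% of 399 in replicate 2. The log2 fold changes were 4.87 ± 0.23 in noradrenergic neuron-like (edgeR adjusted p = 3.6e-12), 4.56 ± 0.23 in neuron-like (edgeR adjusted p = 2.04e-11) and 3.45 ± 0.25 in newborn neuron-like cells (edgeR adjusted p = 1.58e-09).

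NRP1, the semaphorin 3A binding receptor, was highest in cluster 18 (392 and 267 CPM) and noradrenergic neuron-like cells (269 and 258 CPM), which overlapped. Cluster 9 had 151 and 185 CPM and neuron-like cells 174 and 162 CPM, against 54.5 and 58.3 CPM in neural progenitor-like cells. The log2 fold changes were 2.22 ± 0.15 in noradrenergic neuron-like cells (edgeR adjusted p = 7.02e-20) and 1.58 ± 0.16 in neuron-like cells (edgeR adjusted p = 1.6e-12). Newborn neuron-like cells had 65.9 and 92.4 CPM, and their fold change of 0.53 ± 0.19 (edgeR adjusted p = 0.0104) was 0.03 with library totals only and was lost with limma-trend (0.46, adjusted p = 0.166).

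**Figure D2:**
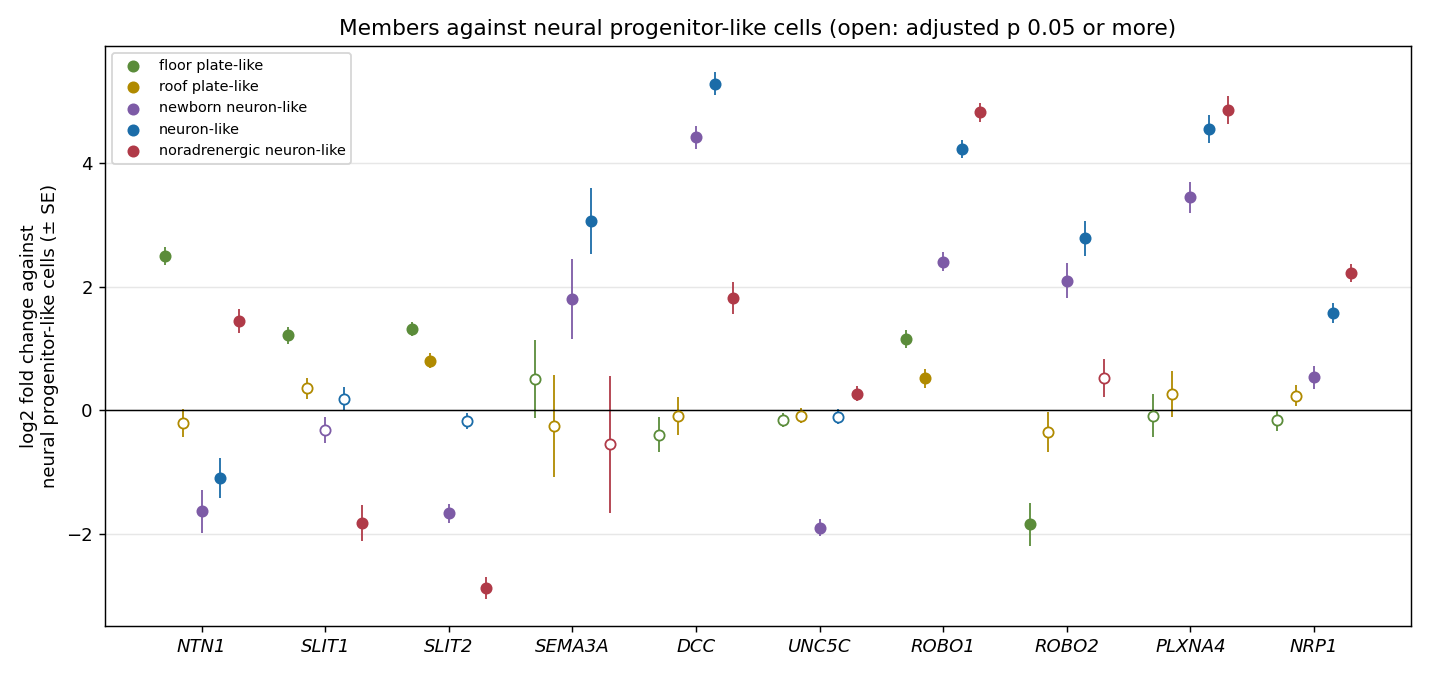
Log2 fold change against neural progenitor-like cells (y, bars are SE) of each member (x) in 5 cell groups, from 1 edgeR fit over 2 libraries, with open points for an adjusted p of 0.05 or more. The neuronal groups sit above 0 for DCC, ROBO1, PLXNA4 and NRP1, and floor plate-like cells for NTN1, SLIT1, SLIT2 and ROBO1.

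Read by group, the ligand-sending and receptor-bearing groups were as follows. All of these comparisons share the neural progenitor-like libraries. In neuron-like cells 6 members were higher, the 5 receptors other than UNC5C and the ligand SEMA3A, and 1 was lower, NTN1, where 22.2% and 25.4% of 11271 genes tested were called higher and lower. In newborn neuron-like cells the same 6 genes were higher and NTN1, SLIT2 and UNC5C lower (background 33.7% and 31.5%). In noradrenergic neuron-like cells 6 members were higher, namely NTN1 and the receptors other than ROBO2, and SLIT1 and SLIT2 were lower (background 32.9% and 28.8%). In floor plate-like cells 4 members were higher, the 3 ligands NTN1, SLIT1 and SLIT2 and the receptor ROBO1, and ROBO2 was lower (background 29.5% and 32.4%). In roof plate-like cells 2 members, SLIT2 and ROBO1, were higher and no member was lower (background 29% and 33.9%). The ROBO1 value of 0.52 ± 0.16 there (edgeR adjusted p = 0.00426) became -0.027 with library totals only and 0.33 (adjusted p = 0.0934) with all deposited barcodes. In mesenchyme-like cells 1 member, SLIT2, was higher and 5 were lower, NTN1, SLIT1, ROBO1, ROBO2 and UNC5C (background 31.1% and 34.9%). The unnamed clusters were mixed: cluster 9 had 3 members higher (NRP1, ROBO1 and DCC) and 3 lower (background 25.2% and 23.6%), and cluster 18 had 4 higher and 2 lower (17.5% and 13.3%). Cluster 13, led by the liver-type genes SERPINA1 and AHSG and with summed hepatic or yolk sac markers at 397 and 3760 CPM, had 0 higher and 6 lower (29.9% and 36.4%), and cluster 14, led by PF4 and TFF2, had 0 higher and 4 lower (5.17% and 3.55%). With 10 members, the counts in floor plate-like cells and in cluster 9, the higher count in roof plate-like cells and the lower count in newborn neuron-like cells were not far from the background. The part of the other markers in clusters 13 and 18 was not tested.

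The other listed guidance genes gave the wider setting. Of 76 tested in neuron-like cells, 47 were higher and 9 lower (background 22.2% and 25.4%), with a median log2 fold change of 1.09 against -0.13 over all genes tested. The named rises there were the netrin receptor DSCAM (4.49 ± 0.20), the ephrin receptor EPHA3 (4.1 ± 0.16), the adhesion molecules NRCAM (3.87 ± 0.14) and CHL1 (3.30 ± 0.16) and the plexins PLXNC1 (3.07 ± 0.19) and PLXNA2 (2.98 ± 0.18), with edgeR adjusted p from 9.55e-32 to 6.5e-13. In newborn neuron-like cells 37 were higher and 19 lower (background 33.7% and 31.5%), led by the axonal adhesion molecule CNTN2 (56.7 and 45.2 CPM, against 0.672 and 0.643 in neural progenitor-like cells) and with the repulsive ligand DRAXIN at 80.5 and 93.4 CPM, against 7.90 and 8.51. In noradrenergic neuron-like cells 30 were higher and 18 lower (background 32.9% and 28.8%). They had NRCAM at 1767 and 1888 CPM (log2 fold change 5.64 ± 0.14), the netrin receptor UNC5D at 1758 and 1324 CPM (4.87 ± 0.13), the semaphorin receptor NRP2 at 239 and 243 CPM (4.69 ± 0.19) and the third Slit ligand, SLIT3, at 731 and 549 CPM (3.55 ± 0.14), each past the edgeR threshold. SLIT3 was thus higher in the group where SLIT1 and SLIT2 were lower. In floor plate-like cells 18 were higher and 23 lower (background 29.5% and 32.4%), with DSCAM at 490.2 and 512 CPM, UNC5D at 397 and 413 CPM and the floor plate matrix protein SPON1 at 172 and 168 CPM higher, and the ephrin receptor EPHA4, the guidance ligand RGMB and the hedgehog co-receptor BOC lower. In roof plate-like cells 9 were higher and 23 lower (background 29% and 33.9%), with EPHA4 at 6.87 and 9.98 CPM, against 182 and 161 in neural progenitor-like cells.

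Ligands and receptors of the whole list were then counted apart. In neuron-like cells the median log2 fold change was 1.52 over 30 receptors, 18 higher and 4 lower, and 0.45 over 36 ligands, 18 higher and 5 lower, where 22.2% and 25.4% of all genes tested were called. In newborn neuron-like cells it was 1.07 over the receptors, 17 higher and 10 lower, and -0.06 over the ligands, 14 higher and 10 lower (background 33.7% and 31.5%). In floor plate-like cells it was -0.25 over the receptors, 5 higher and 11 lower, and -0.09 over the ligands, 9 higher and 12 lower (background 29.5% and 32.4%). Over all genes tested the median was -0.13 in neuron-like, -0.03 in newborn neuron-like and -0.09 in floor plate-like cells.

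Floor plate-like cells were next set directly against roof plate-like cells, named for the dorsal midline counterpart. Roof plate-like cells had summed roof plate markers at 1326.5 and 1248 CPM with WNT1 at 0. They also had floor plate markers at 355 and 437 CPM and epithelium markers at 1120 and 1210 CPM. The part of these other markers in the comparison was not tested. NTN1 was at 187 and 227 CPM in floor plate-like cells and 30.2 and 33.1 CPM in roof plate-like cells, a log2 fold change of 2.70 ± 0.20 (edgeR adjusted p = 4.12e-16). Among the members 4 were higher, NTN1, SLIT1 (0.86 ± 0.17), SLIT2 (0.51 ± 0.12) and ROBO1 (0.63 ± 0.16), and ROBO2 was lower (-1.49 ± 0.40), where 7.55% and 7.34% of all genes tested were called higher and lower by edgeR. Of the other guidance genes, DSCAM (3.57 ± 0.25), SPON1 (2.99 ± 0.24), UNC5D (2.77 ± 0.16), SEMA6A (1.51 ± 0.21) and the ligand NELL2 (1.47 ± 0.21) were higher, and the hedgehog co-receptor CDON was lower (-1.49 ± 0.17). The NTN1 call held in all alternatives that gave a test, while SLIT2 became -0.44 and ROBO1 -0.023 at Leiden resolution 2.0, where SLIT1 was 0.54 (adjusted p = 0.159) and 106 of 141 cells named roof plate-like were roof plate-like here. ROBO1 was also lost with the DESeq2 Wald test (adjusted p = 0.101), and ROBO1, ROBO2, SLIT1 and SLIT2 with limma-trend (adjusted p from 0.149 to 0.607).

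Floor plate-like cells held 2 clusters that differed in ribosomal share, and the Slit ligands differed with it. In the ribosome-poor cluster (79 and 102 cells) the median ribosomal share was 3.05% and the median depth 3921 UMI. In the ribosome-rich cluster (89 and 184 cells) they were 25.5% and 10377 UMI. SLIT2 had 1800.2 and 2063 CPM in the ribosome-poor cluster and 612 and 708 CPM in the ribosome-rich cluster (log2 fold change 1.55 ± 0.13), and SLIT1 266 and 303 CPM against 91.7 and 128 CPM (1.33 ± 0.18). NTN1 was closer, at 229 and 336 CPM against 173 and 196 CPM (0.64 ± 0.17). UNC5C was 1.07 ± 0.13 and NRP1 1.77 ± 0.26 higher in the ribosome-poor cluster, so 5 members were called higher and 0 lower, where 26.8% and 23.6% of 11336 genes were.

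Each floor plate-like cluster was then compared with the group whose ribosomal share was like its own, an alternative added after the clusters had been seen. The ribosome-poor cluster against neural progenitor-like cells gave NTN1 2.95 ± 0.18, SLIT1 2.05 ± 0.16, SLIT2 2.24 ± 0.12 and ROBO1 1.37 ± 0.17, with NRP1 and UNC5C also higher and ROBO2 lower (-1.56 ± 0.47), 6 members higher and 1 lower at a background of 13.5% and 11.4%. The ribosome-rich cluster against roof plate-like cells gave NTN1 2.53 ± 0.22 (edgeR adjusted p = 4.37e-14) and ROBO1 0.56 ± 0.17 (edgeR adjusted p = 0.0254). In that comparison NRP1, UNC5C and ROBO2 were lower, 2 members higher and 3 lower at a background of 3.68% and 4.62%. SLIT1, at 91.7 and 128 CPM in the ribosome-rich cluster and 76.1 and 95.4 CPM in roof plate-like cells, did not pass (0.37 ± 0.19, edgeR adjusted p = 0.282), nor did SLIT2, at 612 and 708 CPM and 672 and 748 CPM (-0.10 ± 0.13, edgeR adjusted p = 0.758). NTN1 and ROBO1 passed in both matched comparisons, SLIT1 and SLIT2 in that of the ribosome-poor cluster.

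**Figure D3:**
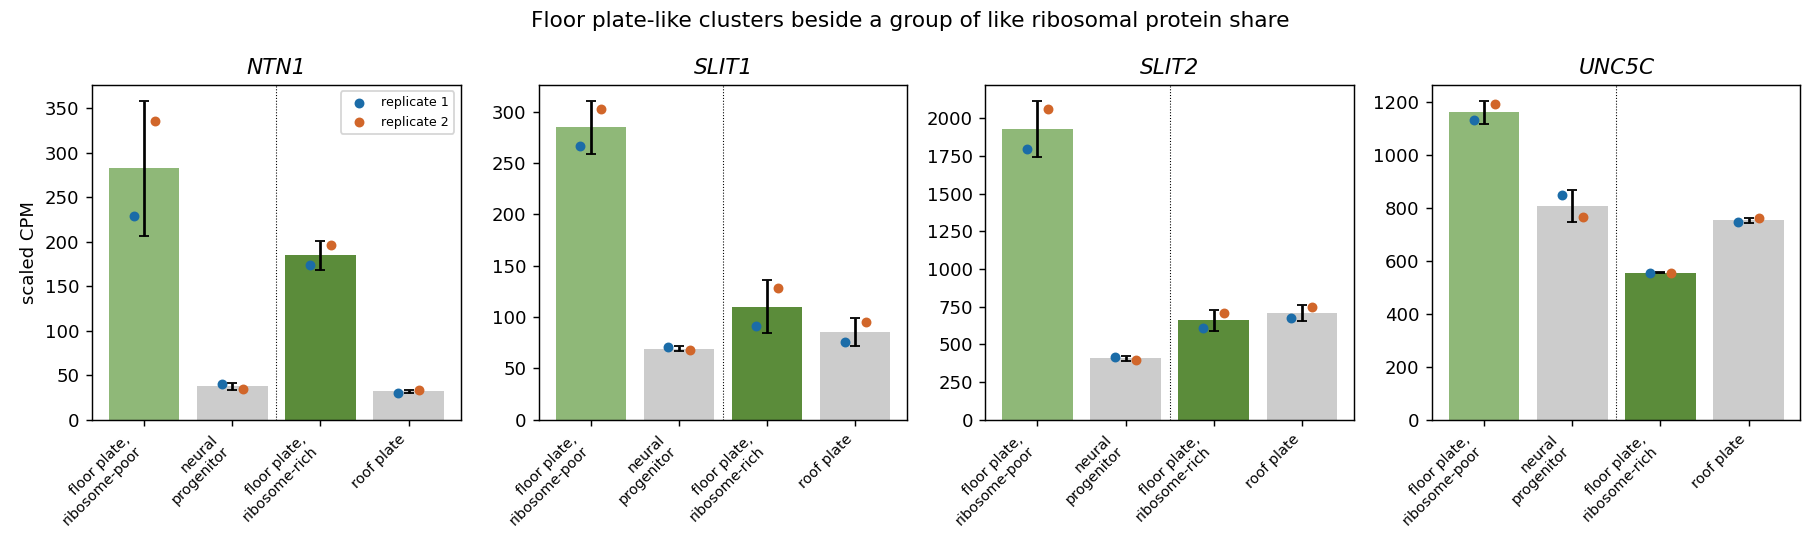
Scaled CPM (y) of NTN1, SLIT1, SLIT2 and UNC5C in the ribosome-poor floor plate-like cluster beside neural progenitor-like cells and in the ribosome-rich cluster beside roof plate-like cells (x); bars are means, error bars SD and points the 2 libraries. NTN1 is higher than its neighbour in both pairs, while SLIT2 of the ribosome-rich cluster, at 612 and 708 CPM, overlaps the 672 and 748 CPM of roof plate-like cells.

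Most member receptors were called higher than in neural progenitor-like cells in both the noradrenergic neuron-like and the neuron-like group, but several differed in level between these groups. DCC had 119 and 92.4 CPM in noradrenergic neuron-like cells and 1074 and 1286 CPM in neuron-like cells, a log2 fold change of -3.48 ± 0.20 (edgeR adjusted p = 4.39e-13). ROBO2 (-2.27 ± 0.31) and the ligands SEMA3A (-3.62 ± 0.88), SLIT1 (-2.01 ± 0.33) and SLIT2 (-2.70 ± 0.20) were lower as well, and NTN1 (2.54 ± 0.32), NRP1 (0.64 ± 0.16), ROBO1 (0.60 ± 0.13) and UNC5C (0.37 ± 0.13) were higher. That makes 4 members higher and 5 lower, where 23.7% and 21.2% of all genes tested were called by edgeR, and PLXNA4 (0.31 ± 0.20) did not pass. Among other guidance genes EPHA3 (-3.88 ± 0.22), EPHB1 (-3.69 ± 0.36), DSCAM (-3.58 ± 0.24) and CHL1 (-3.26 ± 0.23) were lower and NRP2 (3.23 ± 0.25) higher in noradrenergic neuron-like cells. The UNC5C call was lost in 5 alternatives, ROBO1 with the DESeq2 Wald test and limma-trend, and NRP1 with limma-trend. In noradrenergic neuron-like cells 5 of 8 motor neuron markers had counts, at a summed 248 and 280 CPM with MNX1, LHX3 and LHX4 at 0; their part in these results was not tested.

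The ribosomal share was closer between noradrenergic and newborn neuron-like cells, 10.0% and 13.1%, and between newborn neuron-like cells and cluster 9, 13.1% and 19.8%. Every comparison in this paragraph was added after the data had been seen. Noradrenergic against newborn neuron-like cells gave NTN1 3.09 ± 0.35, ROBO1 2.42 ± 0.15, UNC5C 2.17 ± 0.15, NRP1 1.69 ± 0.18 and PLXNA4 1.42 ± 0.29 higher. DCC (-2.61 ± 0.25), ROBO2 (-1.58 ± 0.33), SLIT1 (-1.50 ± 0.36) and SLIT2 (-1.21 ± 0.25) were lower there, 5 members higher and 4 lower at a background of 5.97% and 6.34%. In cluster 9, as in most groups, all 9 progenitor markers of the table had counts, at a summed 1508 and 1599 CPM. It also had noradrenergic markers at 952 and 1002 CPM, neuron markers at 595 and 776 CPM and mesenchyme markers at 686 and 771 CPM. The part of these other markers was not tested. Newborn neuron-like cells against cluster 9 gave DCC 3.19 ± 0.26, PLXNA4 4.14 ± 0.53, ROBO2 1.62 ± 0.32 and ROBO1 0.71 ± 0.15 higher. NTN1 (-2.01 ± 0.41), NRP1 (-1.05 ± 0.19) and UNC5C (-0.74 ± 0.16) were lower, 4 members higher and 3 lower at a background of 15.6% and 15.3%. Newborn neuron-like and roof plate-like cells were not close in ribosomal share, at 13.1% and 24.4%. Against roof plate-like cells newborn neuron-like cells had 4 members higher, DCC (4.52 ± 0.28), PLXNA4 (3.19 ± 0.42), ROBO2 (2.45 ± 0.34) and ROBO1 (1.89 ± 0.16), and 4 lower, SLIT2 (-2.47 ± 0.16), UNC5C (-1.81 ± 0.15), NTN1 (-1.43 ± 0.42) and SLIT1 (-0.67 ± 0.24), at a background of 20.4% and 19.9%. Neuron-like cells against the ribosome-poor floor plate-like cluster, at shares of 1.49% and 3.05%, had the 5 receptors other than UNC5C and SEMA3A higher and NTN1 (-4.04 ± 0.28), SLIT2 (-2.42 ± 0.14), SLIT1 (-1.86 ± 0.21) and UNC5C (-0.64 ± 0.13) lower, 6 members and 4 at a background of 15.4% and 17%.

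Within the neural progenitor-like class the levels differed between clusters, at ribosomal shares of 2.32% to 3.39%. Cluster 7, led by KIF26B and FOXP2 and with SLIT1 itself among its 10 leading genes, had the highest levels of both Slit ligands, SLIT1 at 352 and 339 CPM and SLIT2 at 1370 and 1410 CPM, and of UNC5C (2044 and 1912 CPM), NRP1 (165 and 193 CPM) and PLXNA4 (85.0 and 135 CPM). Cluster 0, led by ERBB4 and with PAX3 among its leading genes, had the highest DCC (86.3 and 102 CPM) and ROBO2 (852 and 746 CPM). ROBO1 was high in both, at 498 and 477 CPM in cluster 7 and 423 and 418 CPM in cluster 0, and between 56.9 and 183 CPM in the other 4. NTN1 was highest in clusters 3 and 7, at 65.1 to 90.4 CPM, and lay between 13.8 and 46.4 CPM in the other 4. Cluster 8, led by mitotic genes such as CDK1 and KIF11, had low SLIT1 (17.9 and 20.2 CPM) and PLXNA4 (2.56 and 2.76 CPM). These levels were scaled over clusters rather than classes, can be compared only with each other, and were not tested.

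**Figure D4:**
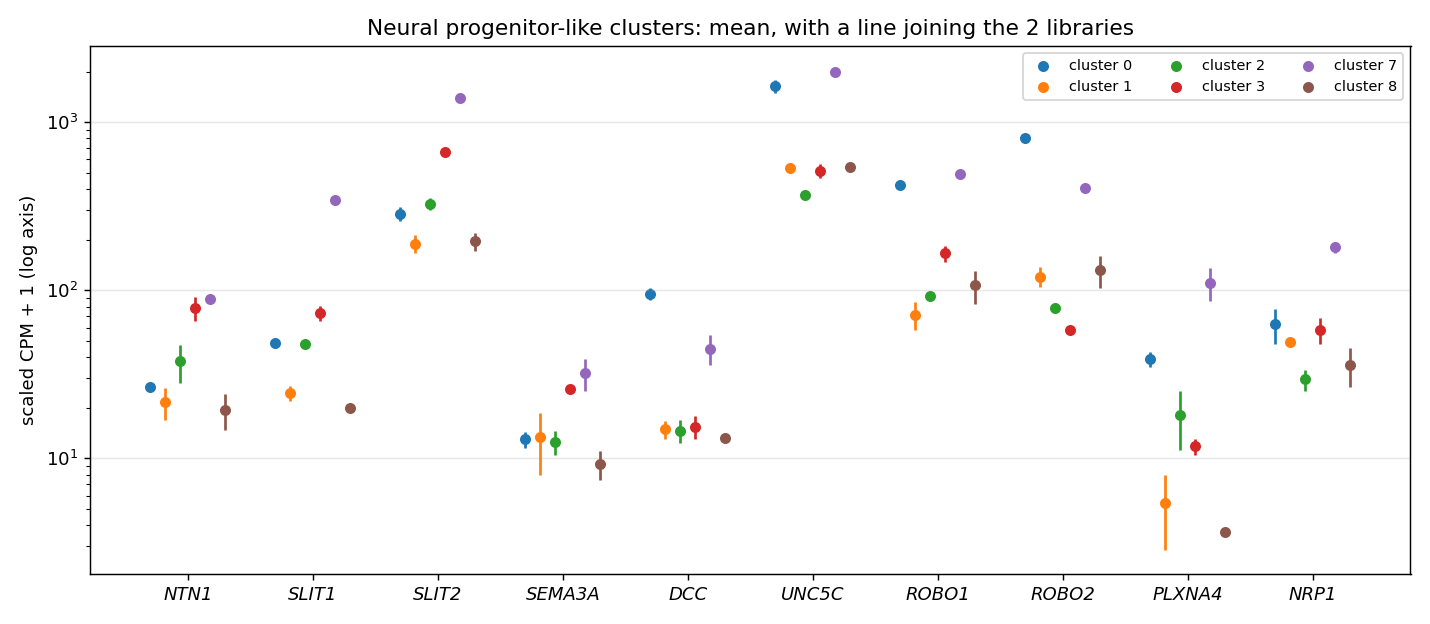
Scaled CPM plus 1 on a log axis (y) of each member (x) in the 6 neural progenitor-like clusters, as the mean with a line joining the 2 libraries. Cluster 7 is highest for SLIT1, SLIT2 and UNC5C and cluster 0 for DCC and ROBO2.

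In single cells, after each cell was thinned to 2000 UMI, NTN1 had a UMI in 27.9% and 34.3% of floor plate-like cells, against 7.30% and 9.14% of neural progenitor-like cells. Without thinning these shares were 53.0% and 62.9%, against 15.3% and 14.1%. DCC had a UMI in 75 of 125 and 56 of 102 thinned neuron-like cells, against 4.79% and 5.51% of neural progenitor-like cells, and ROBO1 in 82.1% and 82.3% of noradrenergic neuron-like cells, against 29.98% and 26.7% of neural progenitor-like cells. Unthinned, the DCC shares were 70.2% and 68.9%, against 9.34% and 9.57%, and the ROBO1 shares 94.3% and 94.1%, against 44.2% and 40.3%. Erythroid-like cells, which should lack these genes, had a thinned share of 0 for 9 members in 9 and 20 cells, and of 0 and 5.0% for SEMA3A. Erythroid-like cells were few, 9 and 22 with a median of 24710 UMI per cell, and unthinned their shares reached 22.2% for UNC5C. SEMA3A had a UMI in 12.8% and 10.8% of thinned neuron-like cells (unthinned 19.9% and 14.3%), in 2.38% and 0% of noradrenergic neuron-like cells and in 3.02% and 3.17% of neural progenitor-like cells. The 5.0% of erythroid-like cells is 1 cell of 20, too few to set a background level for SEMA3A. Thinning left out 16 and 17 of the neuron-like cells, 21 and 15 of the floor plate-like, 3 and 5 of the noradrenergic neuron-like and 116 and 150 of the neural progenitor-like cells.

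Shares of cells with both of a pair were set beside the product of the separate shares. In thinned floor plate-like cells NTN1 with UNC5C was seen in 19.7% and 20.3% of cells, and the product of the separate shares was 16.3% and 18.2%. SLIT2 with ROBO1 was seen in 28.6% and 28.8% of floor plate-like cells (product 25.2% and 26.9%) and in 29.6% and 24.5% of neuron-like cells (product 27.6% and 22.2%). The receptors ROBO1 and ROBO2 met in 50.4% and 49.0% of neuron-like cells (product 52.1% and 47.1%), and PLXNA4 and NRP1 in 23.8% and 24.0% of noradrenergic neuron-like cells (product 18.8% and 24.0%). NTN1 with DCC was seen in few noradrenergic neuron-like cells, 8 of 84 and 3 of 96, though in each library a larger share than the product (4.31% and 1.69%). Cells of a library are not replicates, and these shares are descriptions.

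**Figure D5:**
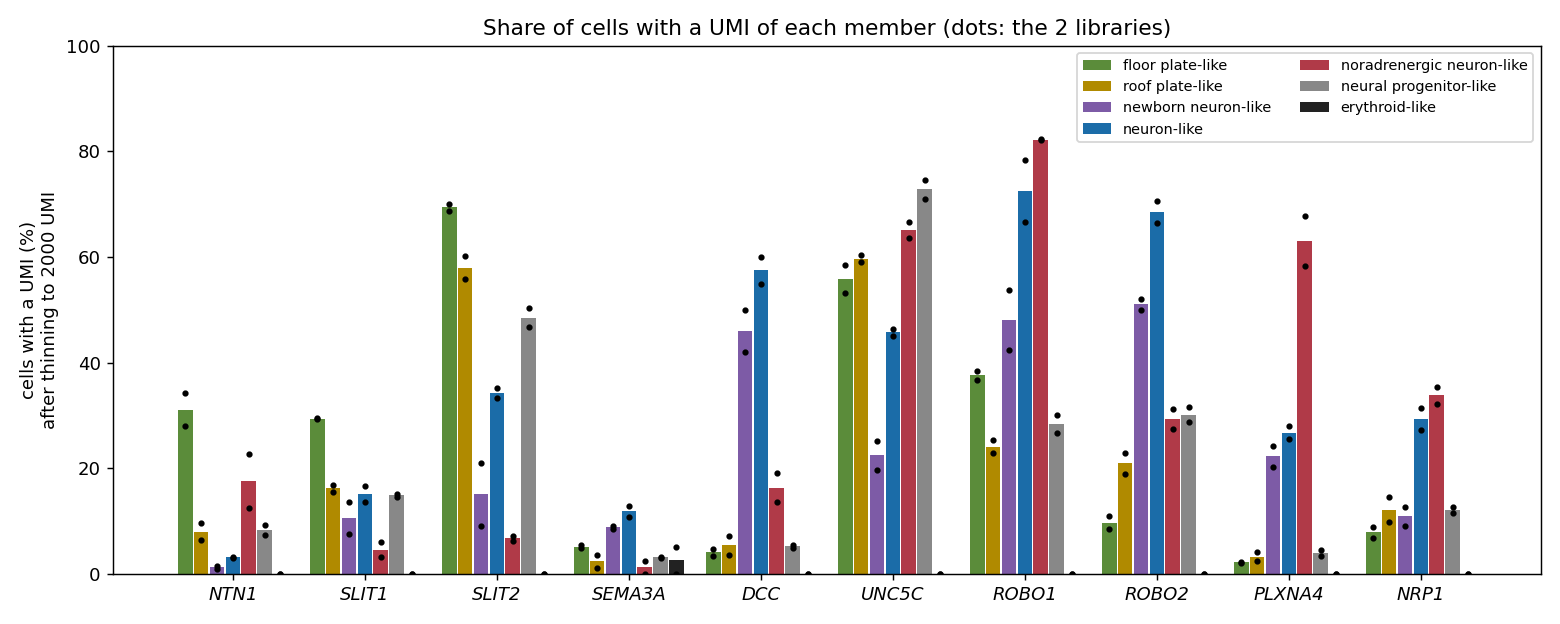
Percent of cells with a UMI after thinning to 2000 UMI (y) for each member (x) in 5 groups, neural progenitor-like and erythroid-like cells; bars are the mean of 2 libraries and dots the libraries. DCC, ROBO1, ROBO2 and PLXNA4 were met in more neuronal than progenitor-like cells, apart from ROBO2 in noradrenergic neuron-like cells, and erythroid-like cells are at or near 0.

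Across the 11 groups the profile of DCC, as log2(CPM + 10) averaged over the 2 libraries, was closest to that of SNTG1 (Pearson r = 0.988), KCNH1 and DNER among 7184 genes. The profile of PLXNA4 was closest to CACNA1B (r = 0.983), of ROBO1 to NBEA (r = 0.975), of ROBO2 to RBFOX3 (r = 0.966), of SLIT1 to TMEM170B (r = 0.975) and of SLIT2 to SOX6 (r = 0.945). MECOM was closest to NRP1 (r = 0.920), EBF2 to SEMA3A (r = 0.915), SIDT1 to NTN1 (r = 0.877) and CNTLN to UNC5C (r = 0.864). Among the members DCC and ROBO2 were most alike (r = 0.829), followed by DCC and PLXNA4 (r = 0.809), and ROBO1 and SLIT2 ran most opposite (r = -0.677). The 11 groups share their libraries and scaling, so these values are descriptions of likeness over 11 points.

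The small groups outside the tests held few counts of any member. Over both libraries erythroid-like cells (31 cells) had at most 4 UMI of a member, trophoblast-like cells (17 cells) at most 2 and binucleate trophoblast-like cells (11 cells) at most 6, those of SLIT2. Epithelium-like cells (28 cells) had 15 UMI of UNC5C, all in replicate 1, and at most 5 of any other member.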

How the data were processed

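UMI counts per gene and cell were used as the authors deposited them, in 1 table that holds both libraries. The submitters' processing notes name bosTau9, Seurat 4.3.0, R 4.1.2 and Cell Ranger, with no step given. Replicates 1 and 2 had 1973 and 2464 barcodes with 11182089 and 15427708 UMI, and shared 6 barcode sequences. No column of another sample was found. Cells were kept from 500 genes and 1000 UMI upward, with a mitochondrial share of up to 15%; Scrublet called 1 and 6 doublets (0.168% of these cells), which were removed, and a share this low may leave doublets in. Cells were clustered with scanpy 1.11.5 (2000 variable genes without guidance genes, 30 components, 15 neighbours, Leiden resolution 1.0).

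Counts were summed per group and library and tested with edgeR 4.0.16 (R 4.3.3): TMM scaling, filterByExpr, a robust quasi-likelihood fit with library as an additive term, and Benjamini-Hochberg adjustment over 11271 genes at 0.05, or 11336 with the floor plate-like clusters apart. The library term was used because both groups of each comparison come from the same libraries. Levels are CPM scaled by TMM factors and are compared between groups within a gene. Shares of cells and floors of 3 counts cover counting error only. The fit was also run on simulated data that gave all groups the same composition apart from the planted changes and reused the fitted dispersions. That run does not cover groups that differ in RNA makeup as these do.

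Alternatives were DESeq2 1.42.0 size factors and Wald test, limma-trend 3.58.1, no low-count filter, no library term, each library alone, Leiden resolutions 0.5 and 2.0, all barcodes and centring within libraries; library totals only and the split of the floor plate-like clusters were added after seeing the data. The other guidance genes named are the 6 with the largest absolute change among those called, alike in both libraries and at 50 CPM or more in the higher group. The members, lists and tests were chosen with earlier results of these data known. Sequences and coordinates were not used here. Some marker values are not reported here.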

Additional observations from a re-analysis of the deposited data

Results flagged for a closer look

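Clusters 16 and 17 came almost wholly from 1 library each, with 1 and 68 cells and 67 and 2 cells, and entered no comparison. In cluster 16, 8 members had more than the 3 UMI that a count of 0 allows, with 216 UMI of UNC5C, 145 of ROBO2, 127 of SLIT2, 86 of ROBO1 and 22 of DCC in replicate 2. In cluster 17, 9 members did so, with 154 UMI of SLIT2, 145 of UNC5C, 114 of ROBO1 and 52 of ROBO2 in replicate 1. There are no control samples for these values, and cluster and library cannot be told apart in them.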

How the results depend on the processing

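Refitted member fold changes were matched by group name. In fits with a test, a value counted as unchanged if it kept its direction and its side of the threshold. In fits of a single library, which give no test, it did so if it moved by no more than the library spread. That spread was the SD of the same 2 single-library values. The main value tends to lie between those 2, so the rule is easily met and says little on robustness. A change of sign was counted in single-library fits only for members called in the main fit, so others can be among the unchanged. By these rules 1091 were unchanged, of which 112 and 100 came from the fits without replicate 1 and without replicate 2. Another 43 passed the threshold anew, 42 lost it and 37 changed sign, while 27 with no test moved by more than the library spread. The cause was not tested. Counts below are of the 86 listed guidance genes tested, members included, most of which stayed within 1.5 times. With limma-trend they were 11 higher and 14 lower in floor plate-like cells (22 and 24 with edgeR), 5 and 8 in roof plate-like (11 and 23), 4 lower in neuron-like (10) and 13 lower in newborn neuron-like cells (22), 5 and 3 for floor plate-like against roof plate-like (13 and 9), 7 higher for noradrenergic neuron-like against neuron-like (14), 3 lower in cluster 14 (18), 14 and 9 in cluster 9 (25 and 18) and 13 higher in cluster 18 (20). With library totals only, 42 were lower in floor plate-like and 42 in roof plate-like, 17 in neuron-like, and 5 were higher in roof plate-like cells; this scaling moved the median of all genes to -0.54 in floor plate-like and -0.69 in roof plate-like cells, against -0.09 and -0.14. At Leiden resolution 2.0, where the names neuron-like and newborn neuron-like mostly exchanged cells, the lower counts were 18 in neuron-like, 4 in newborn neuron-like and 9 in roof plate-like cells, with 7 higher in floor plate-like against roof plate-like and 21 lower (32) in noradrenergic neuron-like against neuron-like cells. In cells named neuron-like, which then took in the newborn neuron-like ones, 18 were lower at resolution 0.5 and 19 with all barcodes, and 2 in neuron-like cells with the DESeq2 Wald test.

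Signs turned with library totals only for PLXNA4 in cluster 18 (-0.15) and mesenchyme-like cells (-0.19), NTN1 in cluster 9 (-0.065), SLIT1 in neuron-like cells (-0.10), UNC5C in noradrenergic neuron-like cells (-0.15) and against roof plate-like cells in floor plate-like cells (0.028), and in roof plate-like cells for NRP1 (-0.31), PLXNA4 (-0.29), ROBO1 (-0.027) and SLIT1 (-0.20). At resolution 2.0 they turned in roof plate-like cells for DCC (1.03, called), PLXNA4 (-0.78), ROBO2 (0.14), SEMA3A (0.45) and UNC5C (0.14), in floor plate-like against roof plate-like cells for PLXNA4 (0.38), ROBO1 (-0.023) and SLIT2 (-0.44), and in cells named neuron-like for SLIT1 (-0.34). At resolution 0.5 they did for PLXNA4 in floor plate-like (0.018) and SLIT1 in cells named neuron-like (-0.043). With all barcodes they did for DCC (0.0056) and PLXNA4 (-0.80) in roof plate-like cells, PLXNA4 (0.50) and UNC5C (0.064) in floor plate-like against roof plate-like cells, SLIT1 in cells named neuron-like (-0.29) and UNC5C in noradrenergic neuron-like cells (-0.063). Centring within libraries turned DCC (0.39) and PLXNA4 (-0.27) in roof plate-like cells, PLXNA4 in floor plate-like cells (0.051), and PLXNA4 (0.32) and UNC5C (0.013) in floor plate-like against roof plate-like cells. DESeq2 size factors and its Wald test turned NRP1 in cluster 14 (0.018 and 0.013) and UNC5C in neuron-like cells (0.047 and 0.041). ROBO2 in cluster 18 was -0.018 without replicate 2.

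Without the replicate block UNC5C in noradrenergic neuron-like cells lost its call (0.27, adjusted p = 0.112); no other member call changed and no count moved by over 1.5 times. Leaving out a library left 1 sample a group and no test. Newborn neuron-like cells were not named at resolution 0.5 or with all barcodes, nor roof plate-like cells at 0.5, and have no value there.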
